A study of Mus musculus with 20 samples.

Results

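The genes described here encode the 3 peroxisome proliferator-activated receptors (Pparg, Ppara and Ppard), the retinoid X receptors Rxra and Rxrb that pair with them, the coactivators Ppargc1a, Ppargc1b and Med1, and the corepressor Ncor1. They were found by gene symbol in the deposited count files, where all 9 symbols matched a row, out of 22298 genes listed. RNA of whole liver was sequenced in bulk from male Lepr db/db mice, a strain that turns obese and diabetic because its leptin receptor does not signal. Each of the 20 libraries was taken as 1 mouse. At 5 weeks of age every mouse was given an adeno-associated virus of serotype AAV8 through the tail vein, so the controls carried a viral vector too. In the Vec group (labelled control) the vector held a non-targeting shRNA and the mice received vehicle by gavage. The Vec+BBR group (labelled benzbromarone) received the same vector and benzbromarone (BBR), a uric acid lowering drug, at 25 mg per kg once daily for 4 weeks. The shRNA group (labelled PPAR knockdown) received a vector with shRNAs against Pparg and vehicle, and the shRNA+BBR group (labelled PPAR knockdown + benzbromarone) received that vector and BBR. Each group had 5 mice. The promoter that drives the shRNAs is not given in the sources used here. The comparisons ask how far the knockdown lowered Pparg itself, and whether BBR or the knockdown also changed its relatives and partners.

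PPARs are nuclear receptors that are switched on by fatty acids and by drugs. Each binds DNA as a heterodimer with an RXR, and the pair recruits corepressor complexes such as NCOR1 without an agonist and coactivators such as PGC-1α (Ppargc1a), PGC-1β (Ppargc1b) and the Mediator complex through MED1 with one. In liver, PPARα is the main receptor for the fasting program of fatty acid oxidation. PPARγ is best known from adipocytes, and in the steatotic liver of obese mice it drives lipid droplet and lipid uptake genes. PPARδ is present in most tissues.

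The vector carried 4 shRNAs, and their targets of 21 bases are shown because they set which of the 3 receptors could be cut. They are written 5′ to 3′ as in the Pparg messenger RNA, with capitals for the bases that pair with bases 2 to 8, the seed, of the antisense strand.
shRNA1: gcatctccaccttATTATTCt
shRNA2: ggatgtctcacaaTGCCATCa
shRNA3: ggaaagacaacggACAAATCa
shRNA4: ggaagccctttggTGACTTTa
All 4 targets lie on the plus strand of chromosome 6 in the coding sequence of Pparg (GENCODE M21 on GRCm38). In the transcript Pparg-204 their first bases are coding positions 241, 515, 709 and 1064. The target of shRNA1 lies in exon 4 (chr6:115441512-115441532), and that of shRNA2 is split over exon 5 (chr6:115451068-115451082) and exon 6 (chr6:115463086-115463091). The target of shRNA3 lies in exon 6 (chr6:115463265-115463285) and that of shRNA4 in exon 7 (chr6:115473195-115473215). The targets occur in 6, 5, 4 and 3 of the 7 annotated Pparg transcripts, in the order of the shRNAs. No other gene in the annotation held an exact match. The closest stretches in transcripts of the other 8 genes differed at 4 to 9 bases. With Ppara the fewest differing bases were 8, 4, 7 and 5 for the 4 shRNAs in order, and with Ppard 8, 5, 8 and 5.

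**Figure D1:**
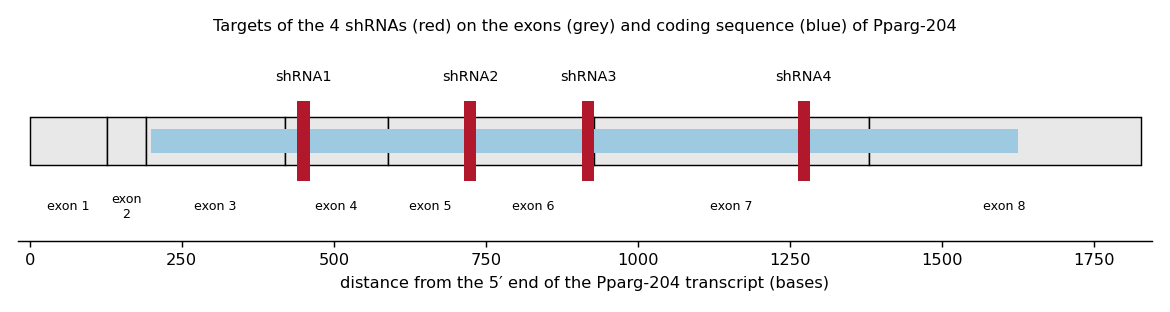
Positions of the 4 shRNA targets (red) along the Pparg-204 transcript, in bases from its 5′ end, with exons in grey and the coding sequence in blue. All 4 red marks fall inside the coding sequence, in exons 4 to 7.

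For every gene and library the deposited values are an estimated count and FPKM. FPKM is scaled for transcript length and depth, so it is used below to compare genes. CPM, which are counts per 1000000 counts normalized with TMM factors, compare 1 gene between libraries and are not scaled for length. Library totals ran from 17432904 to 25024099 counts. A count of 3, taken as the floor, was worth at most 0.193 CPM, and the lowest count of any of the 9 genes was 16. Libraries correlated with the others of their group at r = 0.971 to 0.986 (mean Pearson r per library, log2 CPM). Mitochondrial genes took from 9.14% to 16.2% of the counts. Their share was over 13% in 3 libraries, namely Vec+BBR replicate 1 (13.8%), shRNA+BBR replicate 2 (16.2%) and shRNA+BBR replicate 3 (14.6%), and results that rest on these are also given without them. In bulk liver, fewer cells of a type and less RNA per cell cannot be told apart.

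Measured per transcript length, Rxra was the most abundant of the 9 genes, with a mean of 57.6 FPKM over the 20 libraries. It was followed by Ppara (19.1 FPKM), Ncor1 (10.7), Pparg (10.4), Rxrb (7.43), Med1 (2.29), Ppard (1.27), Ppargc1a (0.77) and Ppargc1b (0.46). Among 16284 genes with an FPKM above 0 in Vec livers, Rxra stood at percentile 93.3, Ppara at 85.3 and Pparg at 80.8. Ppargc1a and Ppargc1b stood at percentiles 40.9 and 34.5. The order held in every library between Rxra and Ppara, between Rxrb and Med1, and between Med1 and Ppard. Ppard was higher than Ppargc1a in 19 of 20 libraries, and Ppargc1a was higher than Ppargc1b in 19 of 20.

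Pparg changed its place in this order. In Vec+BBR livers its FPKM was above those of Rxrb and Ncor1 in all 5 libraries, with no overlap of the ranges. In shRNA livers both Ncor1 and Rxrb exceeded it in all 5 libraries with no overlap, with Pparg from 1.76 to 3.98 FPKM and Rxrb from 6.48 to 7.83. In Vec livers the range of Pparg overlapped that of Ncor1 and that of Rxrb, although Pparg was above Rxrb in 5 of 5 libraries, and the ranges of Ppara and Ncor1 overlapped.

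**Figure D2:**
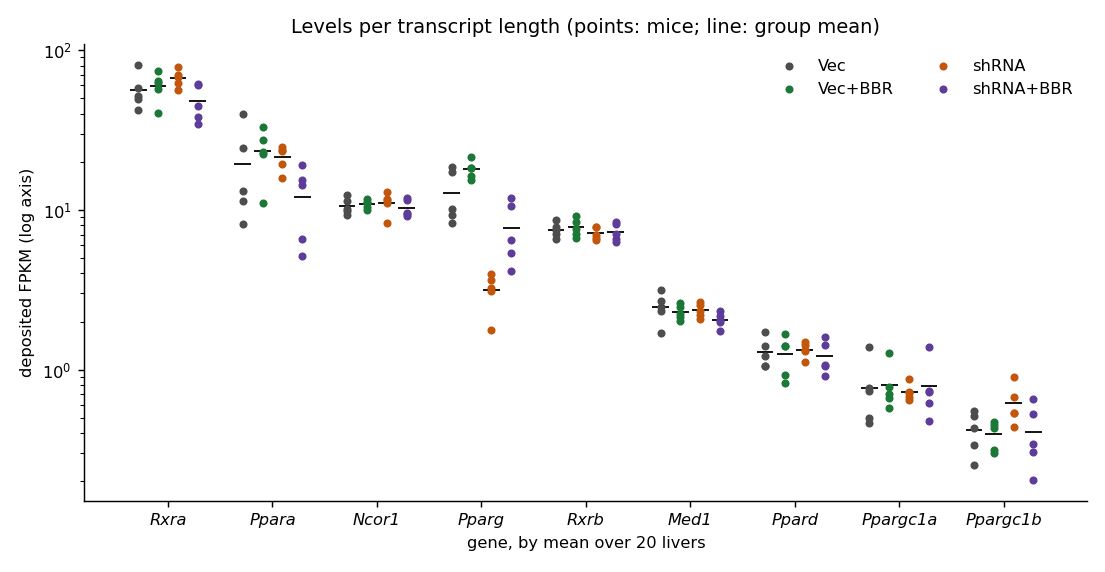
Deposited FPKM of the 9 genes (log axis) in each of 20 livers, by group, with group means as lines. Rxra lies highest at a mean of 57.6 FPKM and Ppargc1b lowest at 0.46, and the Pparg points of the shRNA livers lie below those of the Vec livers without overlap.

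All 9 genes passed the low-count filter, as did 12342 genes of the whole table, and edgeR's quasi-likelihood test was adjusted over those 12342 (Benjamini-Hochberg, threshold 0.05). Between Vec+BBR and Vec, 0 of the 9 genes passed, where 15.5% of all tested genes did, and at an unadjusted p under 0.05 there were also 0 of 9 against 30.2%. DESeq2 likewise called 0 of the 9 there. Between shRNA and Vec, 1 of 9 passed (Pparg), against 13.2% of all genes. Between shRNA+BBR and Vec+BBR, 1 of 9 passed (Pparg), against 8.13%. Between shRNA+BBR and shRNA, 2 of 9 passed (Pparg and Rxra), against 15.7%, and 5 of 9 had an unadjusted p under 0.05, against 33.2% of all genes. With the 3 libraries of high mitochondrial share left out, 0 of 9 passed in edgeR between shRNA+BBR and shRNA, and 169 genes did in all in place of 1932. The 5 were Pparg, Rxra, Ppara, Ppargc1b and Med1. For the interaction, which is the BBR effect under knockdown minus the BBR effect in Vec, 0 of 9 passed in edgeR and 1 of 9 had an unadjusted p under 0.05 (Pparg), against 0.146% and 18.5% of all genes. The members' median log2 fold change in the 5 comparisons, in this order, was −0.08, −0.07, −0.09, −0.16 and −0.11, and that of all tested genes was −0.0050, −0.0092, −0.0041, 0.0080 and 0.012. The 4 pairwise comparisons share groups, so their results are not independent of each other.

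**Figure D3:**
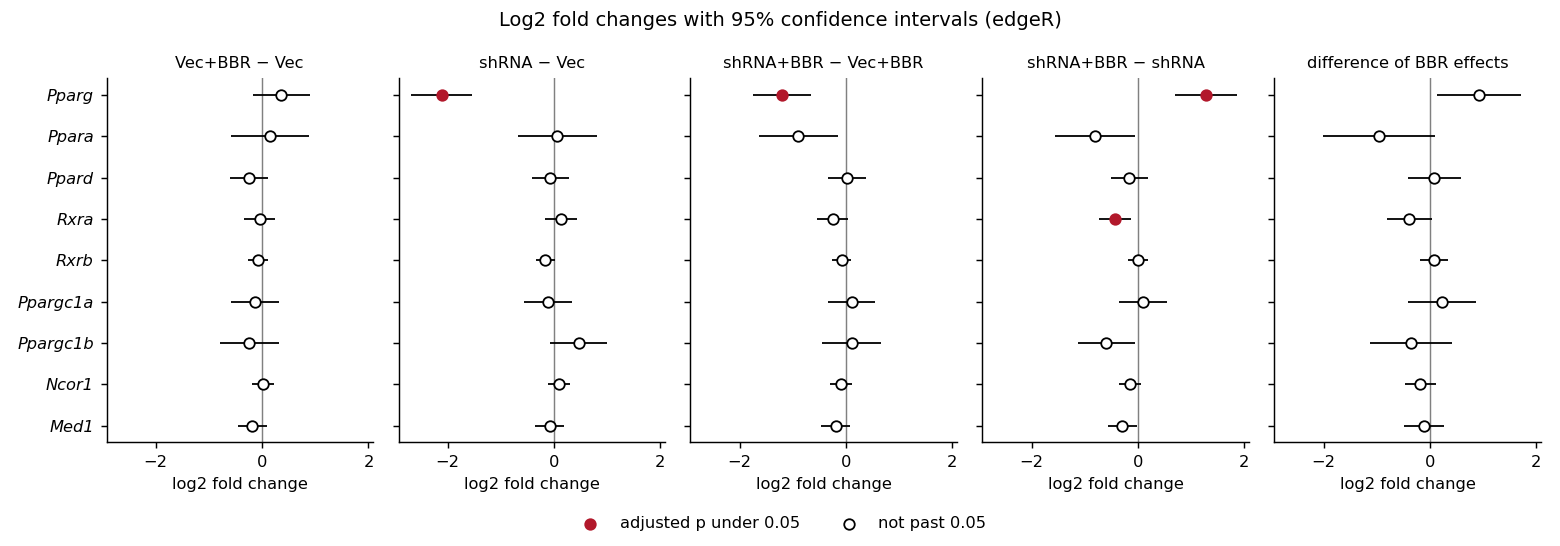
Log2 fold changes (points) with 95% confidence intervals (lines) of the 9 genes in the 5 comparisons, from edgeR, filled red where the adjusted p is under 0.05. Pparg is red in 3 panels, and Rxra is red in the comparison of shRNA+BBR with shRNA.

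Pparg (ENSMUSG00000000440, chromosome 6 from 115360951 to 115490399, plus strand), the target of the knockdown, was lower in both shRNA groups. Its normalized CPM in the Vec libraries were 16.4, 20.1, 35.9, 19.4 and 32.1, and in the Vec+BBR libraries 34.8, 29.8, 28.0, 28.1 and 38.3. In the shRNA libraries they were 7.31, 6.53, 5.96, 3.24 and 5.63, and in the shRNA+BBR libraries 11.4, 9.99, 21.8, 18.9 and 7.19. Every shRNA library lay below every Vec library, and every shRNA+BBR library lay below every Vec+BBR library. Of the 9 genes, only Pparg showed no overlap in these comparisons, where 8.96% and 8.48% of all tested genes showed none. In Vec+BBR against Vec and in shRNA+BBR against shRNA, each of the 9 genes overlapped, where 8.94% and 11.4% of all tested genes did not. The shRNA+BBR group overlapped the shRNA group through 1 library, replicate 5, and the Vec group through replicates 3 and 4.

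The mean Pparg level under vehicle was 23.1% of that in Vec (log2 fold change −2.12, standard error 0.28, edgeR adjusted p = 4.47e-05). Under BBR it was 43.6% of that in Vec+BBR (−1.20, standard error 0.26, edgeR adjusted p = 0.00843). Within the knockdown, BBR livers had 13.9 ± 6.22 CPM (SD, n = 5) against 5.73 ± 1.53 CPM, which is 1.28 on the log2 scale (standard error 0.28, edgeR adjusted p = 0.00773). Pparg rose in that comparison, and it stayed past the threshold with each of the 20 libraries left out in turn (edgeR adjusted p from 0.00262 to 0.0334). Without the 3 libraries of high mitochondrial share it was 1.12 on the log2 scale and no longer passed (edgeR adjusted p = 0.0650). Between Vec+BBR and Vec the log2 fold change was 0.36, with a 95% interval from −0.18 to 0.90 (edgeR adjusted p = 0.372). The 2 BBR effects differed by 0.92 on the log2 scale, with an unadjusted 95% interval from 0.13 to 1.70, and this difference did not pass after adjustment (edgeR adjusted p = 0.208).

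Ppara (ENSMUSG00000022383, chromosome 15 from 85734983 to 85802819, plus strand), the receptor of the oxidative program, was the most variable of the 9 genes within Vec. Its CPM were 25.1, 37.2, 38.1, 112 and 71.4 in Vec and 33.2, 81.7, 64.8, 72.2 and 62.2 in Vec+BBR. They were 68.3, 63.0, 44.6, 55.2 and 65.0 in shRNA and 52.2, 14.1, 19.4, 40.7 and 42.5 in shRNA+BBR. Vec thus spanned the range of all the other groups but for the lowest shRNA+BBR libraries, while 4 of the 5 shRNA+BBR libraries lay below the lowest shRNA library. The coefficient of variation was 62.2% in Vec, 29.0% in Vec+BBR, 16.0% in shRNA and 48.1% in shRNA+BBR.

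The mean of Ppara in shRNA+BBR (33.8 ± 16.3 CPM, SD, n = 5) was 57.0% of that in shRNA (59.2 ± 9.49 CPM) and 53.8% of that in Vec+BBR (62.8 ± 18.2 CPM). Neither difference passed after adjustment. The log2 fold change against shRNA was −0.81, with a 95% interval from −1.56 to −0.06 (edgeR adjusted p = 0.120), and that against Vec+BBR was −0.90, from −1.64 to −0.15 (edgeR adjusted p = 0.125). The knockdown under vehicle gave 0.06, from −0.68 to 0.80, and BBR in Vec gave 0.15, from −0.59 to 0.89. The interaction was −0.96 (edgeR adjusted p = 0.308). Outside Vec, the lowest Ppara level of each group came with the highest mitochondrial share of that group. In Vec the libraries lowest in Ppara, replicates 1 and 2, had shares of 9.66% and 9.38%. In Vec+BBR, shRNA and shRNA+BBR the library with the highest mitochondrial share of its group (13.8%, 12.3% and 16.2%) was the one with the lowest Ppara, and in Vec (10.8%) it had rank 3 from the lowest. Without the 3 libraries over 13%, the log2 fold change of shRNA+BBR against shRNA was −0.40 and that against Vec+BBR was −0.64. The part of this in the Ppara levels was not tested.

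**Figure D4:**
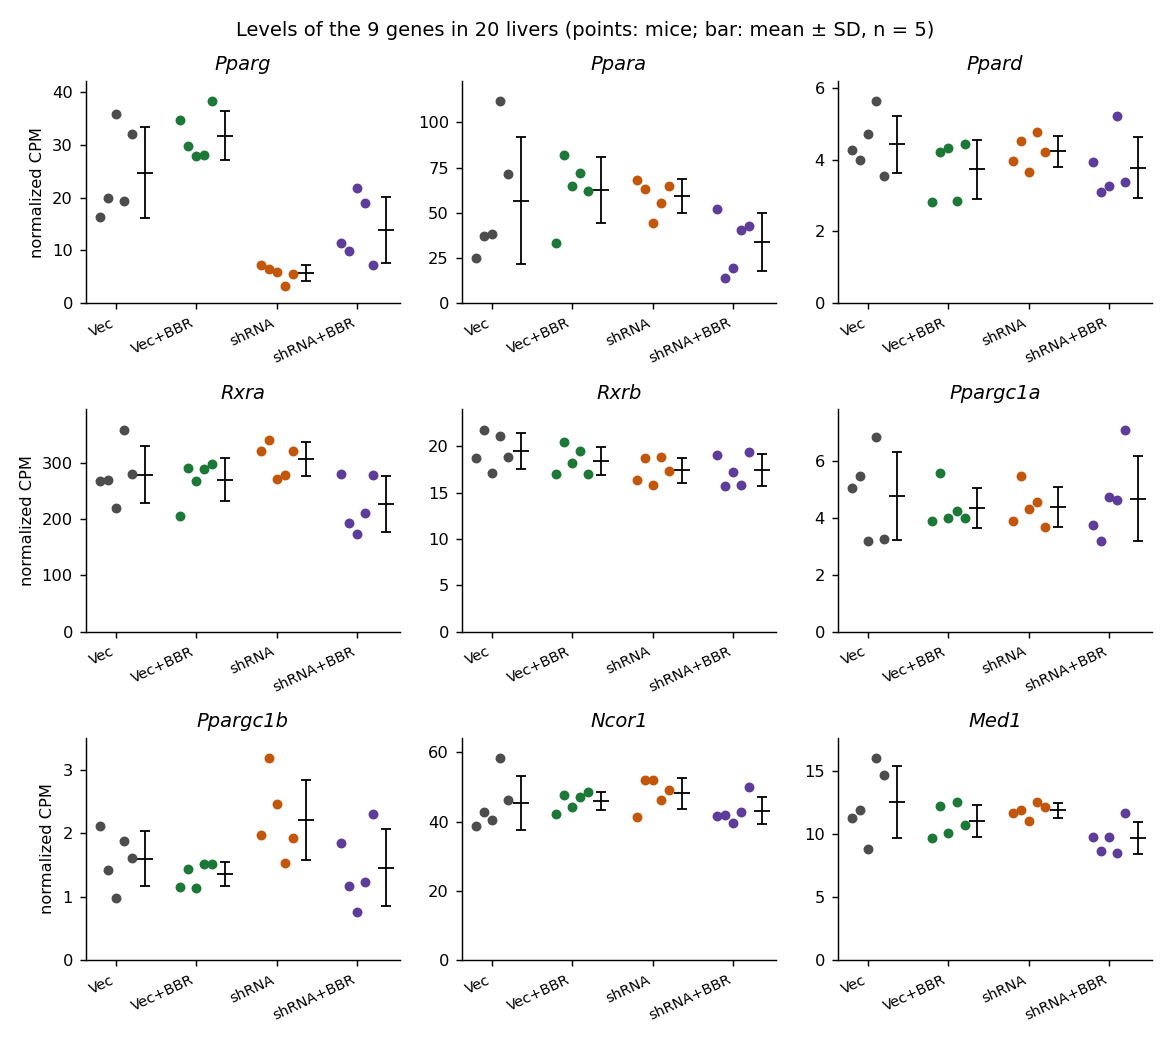
Normalized CPM (linear axes from 0, not scaled for length) of the 9 genes in 20 livers, with mean ± SD (n = 5) beside each group. Pparg separates the shRNA groups from the Vec groups at each treatment, and the 5 Ppara values of Vec run from 25.1 to 112 CPM.

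Pparg and Ppara were also compared within each library. Counts were divided by each gene's mean length, as implied by the deposited count and FPKM, and their ratio was taken on the log2 scale, where 0 means equal levels per length. Pparg exceeded Ppara in 2 of 5 Vec, 1 of 5 Vec+BBR, 0 of 5 shRNA and 2 of 5 shRNA+BBR livers. The log2 ratios were 0.01, −0.27, 0.54, −1.91 and −0.53 in Vec and 0.69, −0.84, −0.59, −0.74 and −0.08 in Vec+BBR. In shRNA they were −2.60, −2.65, −2.28, −3.47 and −2.91, all below those of every other library. In shRNA+BBR they were −1.57, 0.12, 0.79, −0.48 and −1.94.

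The mean log2 ratio was lower in shRNA than in Vec, at −2.78 ± 0.44 against −0.43 ± 0.91 (SD, n = 5 each), a difference of −2.35. It was 2.17 higher in shRNA+BBR (−0.62 ± 1.14) than in shRNA. Both differences gave p = 0.00794 in an exact two-sided permutation test, the smallest that 5 against 5 mice allow, and 0.0159 after adjustment over the 4 comparisons made. The ratio in shRNA+BBR was not told apart from that in Vec+BBR (difference −0.31, exact permutation p = 0.611, adjusted 0.815), nor that in Vec+BBR from that in Vec (0.12, exact permutation p = 0.841, adjusted 0.841). Since the ratio combines both genes, its rise under BBR in the knockdown holds the higher Pparg and the lower mean Ppara described above. Without the 3 libraries of high mitochondrial share the rise was 1.45 (exact permutation p = 0.0179, adjusted 0.0357).

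**Figure D5:**
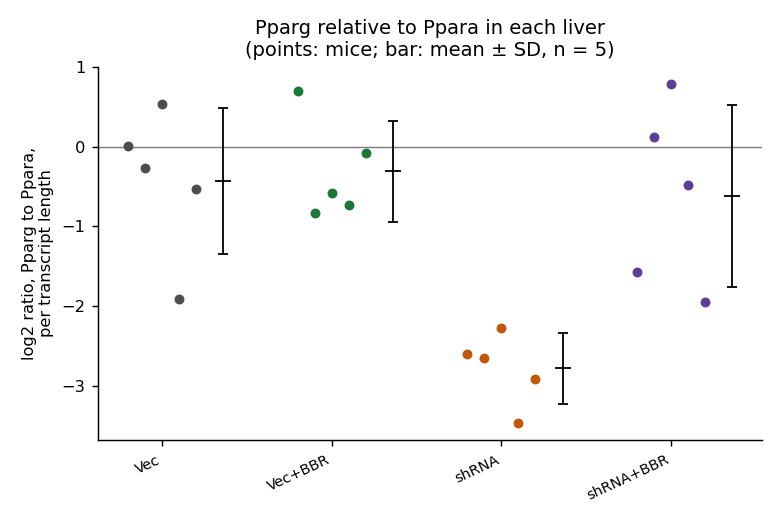
Log2 ratio of Pparg to Ppara per transcript length in each of 20 livers, with mean ± SD (n = 5) beside each group and a line at 0 for equal levels. The 5 shRNA livers lie between −3.47 and −2.28, below all others.

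Ppard (ENSMUSG00000002250, chromosome 17 from 28232700 to 28301474, plus strand), the receptor found in most tissues, was low and even. Its CPM ran from 3.53 to 5.63 in Vec (median 4.26), from 2.82 to 4.43 in Vec+BBR (4.21), from 3.66 to 4.77 in shRNA (4.21) and from 3.11 to 5.20 in shRNA+BBR (3.37). All groups overlapped. Its log2 fold changes lay between −0.25 (Vec+BBR against Vec, 95% interval from −0.60 to 0.11) and 0.02 (shRNA+BBR against Vec+BBR, from −0.33 to 0.37). With Ppara, no shift of Ppard opposite to the loss of Pparg was detectable under vehicle, where its log2 fold change was −0.07 (from −0.42 to 0.28).

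Rxra (ENSMUSG00000015846, chromosome 2 from 27676440 to 27762957, plus strand), the main RXR of liver, was the only gene of the 9 besides Pparg to pass the threshold in edgeR. Its CPM were 268, 269, 220, 359 and 280 in Vec and 206, 290, 268, 290 and 298 in Vec+BBR. They were 322, 341, 271, 278 and 322 in shRNA and 280, 193, 173, 211 and 278 in shRNA+BBR. The shRNA and shRNA+BBR groups overlapped, with 3 of the 5 shRNA+BBR libraries below the lowest shRNA library. Rxra fell to 74.0% of the shRNA level under BBR (log2 fold change −0.43, standard error 0.14, edgeR adjusted p = 0.0441).

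This call was close to the threshold. Leaving out each library in turn, Rxra passed in 8 of 20 fits (log2 fold change from −0.52 to −0.35, edgeR adjusted p from 0.0207 to 0.135). The lowest size came without shRNA+BBR replicate 3. Without a low-count filter the adjusted p in edgeR was 0.0522, and DESeq2 gave an adjusted p of 0.0220. The exact permutation test gave p = 0.0397, or 0.238 adjusted over the 36 tests made on the 9 genes. This adjustment weighs little, since it left even Pparg in the knockdown comparisons at 0.143. Without the 3 libraries of high mitochondrial share the log2 fold change was −0.26 (edgeR adjusted p = 0.297). In Vec, Vec+BBR and shRNA the library with the highest mitochondrial share was the one lowest in Rxra, and in shRNA+BBR it was the second lowest. The part of this in the Rxra result was not tested. In the other comparisons Rxra gave −0.05 (Vec+BBR against Vec), 0.14 (shRNA against Vec) and −0.25 (shRNA+BBR against Vec+BBR, 95% interval from −0.55 to 0.04).

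Rxrb (ENSMUSG00000039656, chromosome 17 from 34031812 to 34038399, plus strand), the second RXR, was the steadiest of the 9 genes over all libraries, with a highest CPM 1.39 times the lowest. Its CPM ran from 17.1 to 21.8 in Vec, from 17.0 to 20.5 in Vec+BBR, from 15.9 to 18.9 in shRNA and from 15.7 to 19.4 in shRNA+BBR. The log2 fold change of shRNA+BBR against shRNA was −0.00029, with a 95% interval from −0.18 to 0.18. That of shRNA against Vec was −0.16, from −0.35 to 0.02 (edgeR adjusted p = 0.235).

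RXRs also pair with receptors for oxysterols, bile acids, retinoids, thyroid hormone and xenobiotics. Of a list of 12 genes with Rxrg and such partners, 11 were tested. Nr1h2, which encodes the oxysterol receptor LXRβ, was the only one past the threshold in edgeR, in 2 comparisons where 15.5% and 15.7% of all genes passed. It fell by 0.25 on the log2 scale in Vec+BBR against Vec (edgeR adjusted p = 0.0327) and by 0.25 in shRNA+BBR against shRNA (edgeR adjusted p = 0.0371). Neither call held without the 3 libraries of high mitochondrial share (edgeR adjusted p = 0.0533 and 0.152). In each knockdown comparison and for the interaction, 0 of 11 passed in edgeR. The medians of the list in the 4 pairwise comparisons lay between −0.06 and 0.0047, and those of all tested genes between −0.0092 and 0.0080.

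Ppargc1a (ENSMUSG00000029167, chromosome 5 from 51454250 to 51567726, minus strand) encodes PGC-1α, the coactivator that links fasting signals to oxidation and gluconeogenesis. Its CPM ran from 3.19 to 6.84 in Vec, from 3.89 to 5.55 in Vec+BBR, from 3.67 to 5.47 in shRNA and from 3.19 to 7.09 in shRNA+BBR, so all groups overlapped. Its 4 pairwise log2 fold changes lay between −0.13 and 0.10, with 95% intervals that together ran from −0.58 to 0.55. Its FPKM is less certain than its counts, since the length implied by count and FPKM ran from 4943 to 6467 bases between libraries.

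Ppargc1b (ENSMUSG00000033871, chromosome 18, minus strand) encodes PGC-1β and was the least abundant of the 9 genes, at 16 to 61 counts per library. Its CPM were 2.10, 1.41, 0.98, 1.88 and 1.60 in Vec and 1.15, 1.43, 1.14, 1.52 and 1.51 in Vec+BBR. They were 1.96, 3.18, 2.46, 1.53 and 1.92 in shRNA and 1.84, 1.16, 0.76, 1.23 and 2.30 in shRNA+BBR. The highest values were in shRNA. The groups of each pairwise comparison overlapped, while the lowest shRNA library (1.53) lay just above the highest Vec+BBR library (1.52). Its mean in shRNA+BBR was 66.0% of that in shRNA (log2 fold change −0.60, 95% interval from −1.14 to −0.06, edgeR adjusted p = 0.114). That in shRNA was 139% of that in Vec (0.46, from −0.08 to 1.00, edgeR adjusted p = 0.249). Without shRNA+BBR replicate 5, the library highest in this gene of its group, the first of these differences was −0.82 and passed (edgeR adjusted p = 0.0334). It was −0.30 without the 3 libraries of high mitochondrial share (edgeR adjusted p = 0.563).

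Med1 (ENSMUSG00000018160, chromosome 11 from 98152154 to 98193293, minus strand) encodes the Mediator subunit that nuclear receptors bind. Its CPM were 11.3, 11.9, 8.83, 16.0 and 14.7 in Vec and 9.66, 12.2, 10.1, 12.5 and 10.7 in Vec+BBR. They were 11.7, 11.9, 11.1, 12.6 and 12.1 in shRNA and 9.74, 8.66, 9.80, 8.53 and 11.7 in shRNA+BBR. The shRNA group was tight, and 4 of the 5 shRNA+BBR libraries lay below it. The mean in shRNA+BBR was 81.6% of that in shRNA, a log2 fold change of −0.29 with a 95% interval from −0.57 to −0.02, which did not pass after adjustment (edgeR adjusted p = 0.120). The other pairwise differences of Med1 lay between −0.19 and −0.08.

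Other coactivators were read from a list of 14 genes, 13 of them tested. Kat2b, a histone acetyltransferase, rose by 0.78 on the log2 scale in shRNA against Vec (edgeR adjusted p = 0.000140) and fell by 0.43 in shRNA+BBR against shRNA (edgeR adjusted p = 0.0182). Ncoa1, the steroid receptor coactivator SRC-1, rose by 0.46 in the first of these (edgeR adjusted p = 0.00577) and fell by 0.36 in the second (edgeR adjusted p = 0.0239). Ncoa2, a relative of Ncoa1, fell by 0.64 in the second (edgeR adjusted p = 0.0208) and had 0.42 in the first (edgeR adjusted p = 0.110). The list thus had 2 genes higher and 0 lower in shRNA against Vec, and 0 higher and 3 lower in shRNA+BBR against shRNA, against 5.28% and 7.28% of all tested genes in those directions. In the other 3 comparisons 0 of 13 passed in edgeR. The medians of the list were 0.26 in shRNA against Vec and −0.24 in shRNA+BBR against shRNA. Without the 3 libraries of high mitochondrial share, 0 of 13 passed in edgeR in shRNA+BBR against shRNA, where Kat2b had −0.26, Ncoa1 −0.26 and Ncoa2 −0.40. No interaction of these 3 genes passed (edgeR adjusted p from 0.118 to 0.205).

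Of the other 31 Mediator subunits, all tested, 1 was higher and 2 were lower in Vec+BBR against Vec, where 7.58% and 7.88% of all genes were, and 1 was higher in shRNA against Vec, where 5.28% were. In shRNA+BBR against Vec+BBR 1 was lower, and in shRNA+BBR against shRNA 2 were lower, against 4.82% and 7.28% of all genes. Med8 fell by 0.31 in Vec+BBR against Vec (edgeR adjusted p = 0.0123), and Cdk8, the kinase of the complex, rose by 0.58 in shRNA against Vec (edgeR adjusted p = 0.00826). Med16 fell by 0.32 and Med23 by 0.39 in shRNA+BBR against shRNA (edgeR adjusted p = 0.0110 and 0.0230). In both comparisons with shRNA+BBR, 0 of 31 passed in edgeR without the 3 libraries of high mitochondrial share. The medians of the list lay between −0.09 and 0.07 in the 5 comparisons.

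Ncor1 (ENSMUSG00000018501, chromosome 11 from 62316426 to 62458541, minus strand), which holds unliganded receptors in a repressed state with the deacetylase HDAC3, was even across groups. Its CPM ran from 38.6 to 58.3 in Vec (median 42.9), from 42.2 to 48.4 in Vec+BBR (47.2), from 41.4 to 52.1 in shRNA (49.3) and from 39.6 to 50.1 in shRNA+BBR (41.9). Its pairwise log2 fold changes lay between −0.16 and 0.09, and the widest 95% bounds were −0.36 and 0.30. In the annotation the span of Ncor1 overlaps those of Ttc19 and Pigl on the opposite strand. Whether their exons overlap was not checked. The library kit does not mark strand, so reads from any shared exon stretches could not be told apart. Of 10 other corepressors, all tested, Hdac1 fell by 0.25 in Vec+BBR against Vec (edgeR adjusted p = 0.0177), and Tbl1xr1, which exchanges corepressors for coactivators, rose by 0.38 in shRNA+BBR against shRNA (edgeR adjusted p = 0.0280, or 0.152 without the 3 libraries of high mitochondrial share). These are 1 of 10 in each of 2 comparisons in which 15.5% and 15.7% of all genes passed. In the other 3 comparisons 0 of 10 passed in edgeR, and without the 3 libraries 2 were higher in shRNA against Vec, where 867 of 12526 genes were. The medians of the list lay between −0.13 and 0.06.

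The exact permutation tests of the 9 genes in the 4 pairwise comparisons gave no adjusted p under 0.05. The smallest adjusted p was 0.143 over the 36 tests, and it applied to Pparg in 3 comparisons and to Ppara in shRNA+BBR against shRNA (unadjusted p = 0.0159, exact permutation). With 5 mice a group the smallest p possible was 0.00794, reached by Pparg in both knockdown comparisons. Even these comparisons without overlap stood at 0.143 after adjustment over the 36 tests. The adjusted permutation values therefore cannot decide whether a single gene differs.

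Target genes of the receptors were read from lists written from general knowledge, with earlier results of these data known. Of 16 genes typical of PPARγ, 15 were tested. In Vec+BBR against Vec 10 were higher, with a list median of 1.02 on the log2 scale, where 7.58% of all tested genes were higher. Between shRNA+BBR and shRNA 11 were higher (median 0.91), where 8.37% of all genes were. Without the 3 libraries of high mitochondrial share 3 were higher (median 0.81), where 126 of 12526 genes were. In shRNA against Vec 4 were lower (median −0.43), and in shRNA+BBR against Vec+BBR 1 was lower (median −0.45), where 7.91% and 4.82% of all genes were lower. Fitm1, which partitions fat into lipid droplets, fell by 1.58 in shRNA against Vec (edgeR adjusted p = 0.000151) and rose by 1.41 in shRNA+BBR against shRNA (edgeR adjusted p = 0.00244, or 0.0338 without the 3 libraries). Fabp4, a fatty acid carrier of adipocytes, rose by 1.69 in Vec+BBR against Vec and by 0.91 in shRNA+BBR against shRNA (edgeR adjusted p = 0.000167 and 0.0154, the second being 0.0531 without the 3 libraries). Cidea, a protein of the lipid droplet surface, rose by 3.63 in Vec+BBR against Vec and by 5.14 in shRNA+BBR against shRNA, and fell by 2.76 in shRNA against Vec (edgeR adjusted p = 0.000755, 0.00156 and 0.0304). Its second value was 4.68 without the 3 libraries (edgeR adjusted p = 0.0223). Cd36, a fatty acid transporter, rose by 0.55 in Vec+BBR against Vec (edgeR adjusted p = 0.00111). Pparg itself gave 0.36 in Vec+BBR against Vec.

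Of 26 genes typical of PPARα, all tested, 6 were higher and 1 was lower in Vec+BBR against Vec (7.58% and 7.88% of all tested genes). In shRNA against Vec 1 was higher and 8 were lower (5.28% and 7.91% of all genes), where the log2 fold change of Ppara was 0.06. In shRNA+BBR against shRNA 11 were higher and 0 lower (8.37% and 7.28% of all genes), where that of Ppara was −0.81. In shRNA+BBR against Vec+BBR 2 were higher and 2 lower (3.31% and 4.82% of all genes). In each of the last 2 comparisons the counts were 2 higher and 0 lower without the 3 libraries of high mitochondrial share. Of all 12526 genes tested in that fit, 126 and 179 were higher and 43 and 187 lower, in the same order. The list medians in these comparisons were 0.18, −0.18, 0.26 and −0.11, in the order given. Vnn1, a pantetheinase, fell by 1.23 in shRNA against Vec (edgeR adjusted p = 0.000311) and rose by 1.17 in shRNA+BBR against shRNA (edgeR adjusted p = 0.00270). Acadm, the medium-chain acyl-CoA dehydrogenase, fell by 0.45 and rose by 0.42 in the same comparisons (edgeR adjusted p = 0.00123 and 0.00533). Both genes still passed in the second comparison without the 3 libraries (1.12 and 0.41, edgeR adjusted p = 0.0338 each). Cyp4a31, a fatty acid hydroxylase gene, rose by 1.09 in shRNA against Vec (edgeR adjusted p = 0.000315), and reads shared with close relatives of the Cyp4a family make it uncertain. Angptl4, an inhibitor of lipoprotein lipase, fell by 0.53 there (edgeR adjusted p = 0.00100). It was also the 1 gene of the list lower in Vec+BBR against Vec, by 0.30 (edgeR adjusted p = 0.0423, or 0.0487 without the 3 libraries).

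Among the 9 genes, the pair with the most similar levels over the 20 libraries was Ppara and Rxra (Pearson r = 0.83 on log2 CPM, and 0.80 after group means were removed). Rxra also correlated with Ppargc1b (0.77) and Med1 (0.76). The lowest value was that of Pparg with Ppargc1b (−0.58, and −0.44 after group means were removed). With group means removed the lowest was that of Pparg with Rxrb (−0.55), which was 0.14 before. These correlations describe 20 points in 4 groups that share libraries, normalization and mitochondrial share. Among 9787 genes with a mean count of at least 50, those most like Pparg were Erlin1 (0.96), Laptm4b (0.96), Stom (0.96), Lpcat3 (0.96) and Cd1d1 (0.96). After group means were removed these 5 values were 0.85, 0.81, 0.74, 0.87 and 0.77, in that order. Those most like Ppara were Ipo9 (0.95), Plekhb2 (0.94), Mtmr9 (0.94), Sft2d2 (0.93) and Pdpr (0.93). The most similar gene was Eif4g1 for Rxra (0.96), Asxl2 for Ncor1 (0.89), Adgrl2 for Med1 (0.88), Arhgap35 for Ppargc1b (0.85), Cyb561a3 for Rxrb (0.84), Vezf1 for Ppargc1a (0.80) and Crybg1 for Ppard (0.68).

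Markers of liver cell types were read beside these results. The summed level of 6 hepatocyte markers lay between 87892 and 151680 CPM, and their median was 131823 CPM in Vec, 102462 in Vec+BBR, 118721 in shRNA and 112674 in shRNA+BBR. In Vec+BBR against Vec and in shRNA against Vec 2 of 6 were lower, where 7.88% and 7.91% of all genes were. In shRNA+BBR against shRNA 1 was lower, where 7.28% of all genes were, and 0 passed in edgeR without the 3 libraries of high mitochondrial share. Serpina1a, an antiprotease gene with close copies, fell by 1.12, 0.46 and 0.50 in these 3 comparisons (edgeR adjusted p = 0.000112, 0.0395 and 0.0288). Without the 3 libraries only the first of these calls held (edgeR adjusted p = 0.000513, 0.0554 and 0.156). Cyp2e1, a cytochrome P450, fell by 0.80 and 1.14 in the first 2 (edgeR adjusted p = 0.00432 and 0.000195).

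PPARγ is also made by adipocytes, and 6 adipocyte markers were read. Plin1 was at 0 counts in all Vec and shRNA+BBR libraries and at most 3 elsewhere. Lep was at 0 in all libraries but Vec+BBR replicate 3, which held 11 counts of Lep, 10 of Adipoq and 3 of Plin1, and Adipoq had at most 2 counts in every other library. Retn had at most 13 counts. The 2 markers abundant enough to test, Cfd and Car3, moved with BBR or with the knockdown. Car3 had a median of 928 CPM in Vec, where Lep and Plin1 were at 0 counts. Cfd and Retn were both highest in Vec+BBR replicate 5, at 119 and 13 counts. Cfd had 73 counts in Vec+BBR replicate 1, which held 0 of Adipoq and 10 of Retn. Whether Cfd or Car3 reflects adipocytes was not tested. Cfd ran from 0 to 0.785 CPM in Vec, from 1.12 to 5.60 in Vec+BBR, from 0 to 0.228 in shRNA and from 0.822 to 4.93 in shRNA+BBR, and it was higher with BBR in both vectors (edgeR adjusted p = 0.00428 and 0.00226). Car3 fell by 1.31 in shRNA against Vec (edgeR adjusted p = 0.00160) and rose by 0.76 in shRNA+BBR against shRNA (edgeR adjusted p = 0.0435, or 0.130 without the 3 libraries of high mitochondrial share).

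The summed level of 7 macrophage markers ran from 124 to 280 CPM in Vec, from 154 to 232 in Vec+BBR, from 140 to 192 in shRNA and from 187 to 264 in shRNA+BBR. That of 6 stellate cell markers ran from 147 to 274, from 292 to 326, from 183 to 243 and from 242 to 367 CPM in the same order, and that of 6 endothelial markers from 77.1 to 102, from 96.8 to 131, from 110 to 138 and from 94.5 to 132. In Vec+BBR against Vec, where Pparg did not pass, 2 of 6 stellate markers (Col1a1 by 1.18 and Col3a1 by 1.03) and 3 of 6 endothelial markers were higher. Of 7 macrophage markers, Cd68 rose by 0.64 and Marco fell by 3.03 (edgeR adjusted p = 0.0373 and 0.00287). Of all genes, 7.58% were higher and 7.88% lower there. In shRNA against Vec, where Pparg fell, Cd68 fell by 0.72 and Col1a1 by 1.12 (edgeR adjusted p = 0.0274 and 0.0303). This is 1 of 7 macrophage and 1 of 6 stellate markers, against 7.91% of all genes lower. In the same comparison 3 of 6 endothelial markers were higher, against 5.28% of all genes. In shRNA+BBR against shRNA, where Pparg rose, 3 of 7 macrophage markers (Cd68, C1qa and C1qb) and 3 of 6 stellate markers (Col1a1, Col3a1 and Lrat) were higher. Of 6 endothelial markers 1 was higher and 2 were lower, where 8.37% of all genes were higher and 7.28% lower. In shRNA+BBR against Vec+BBR, where Pparg was also lower, 0 of the markers of these 3 cell types, of hepatocytes or of adipocytes passed in edgeR. Without the 3 libraries of high mitochondrial share, 0 of 7 macrophage markers passed in edgeR in shRNA+BBR against shRNA. There 1 of 6 stellate and 1 of 6 endothelial markers were higher, where 126 of 12526 genes were. In Vec+BBR against Vec 4 of 6 endothelial markers were then higher, and the macrophage and stellate counts were as before. The part of these markers in the results for Pparg and Rxra was not tested.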

How the data were processed

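Liver RNA of 20 mice in 4 groups of 5 was measured by poly(A) RNA sequencing, and groups were taken from the treatment labels. The expected count values were deposited by the authors as estimates per gene, not normalized, on genome build mm10 per the submitters' processing notes. The FPKM values, scaled for length and depth, were also made by the authors. The aligner and counting program are not given in the sources used here. Replicates were taken as separate mice, which the study's sequencing methods do not state outright.

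Estimated counts were rounded, low genes were removed with filterByExpr (minimum count 10, minimum total 15) and libraries were scaled by TMM, and 1 mean per group was fitted to all 20 libraries with edgeR 4.0.16 in R 4.3.3 (quasi-likelihood test). Confidence intervals (95%) are unadjusted. FPKM was used only for levels between genes and, with counts, for implied lengths. Permutation tests used log2(CPM + 0.1) and all 252 assignments. Alternatives were RLE factors, DESeq2 1.42.0, no filter, a fit of only the compared groups, a replicate block and leaving out each library. A fit without 3 libraries was chosen after seeing the data. The fit was also run on simulated counts with the same spread in all groups. That run does not cover unequal spread between groups or libraries of high mitochondrial share. No 2 of 40 library pairs within groups were duplicates.

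The 9 genes and all gene lists were chosen with earlier results of these data known. From most lists, up to 4 genes with the smallest adjusted p among those past the threshold were named. Endothelial markers were given as counts, without the genes that this rule picks (Pecam1, Kdr, Lyve1 and Stab2). Lists of cholangiocyte and lymphocyte markers, from which it picks Spp1 and Cd3g, were also read and are not described above. Plin1, Lep, Adipoq and Retn were named outside this rule, as the adipocyte markers too low to test, after their values were seen. For each member the most similar genes by Pearson correlation were named. Positions come from GENCODE M21, and shRNA sequences from the study's supplement were matched to its transcripts.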

Additional observations from a re-analysis of the deposited data

Results flagged for a closer look

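Of 36 groups of 5 libraries (9 genes in 4 groups), 1 held a library far from the others. Ppargc1a in Vec+BBR replicate 2 was at 5.55 CPM, where the other 4 libraries of the group ran from 3.89 to 4.24 CPM. Chance alone flags about 1 group in 20.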

How the results depend on the processing

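Pparg passed in both knockdown comparisons under every alternative run. Between shRNA+BBR and shRNA it passed under all but 1, the fit without the 3 libraries of high mitochondrial share (added after seeing the data), at 1.12. That fit also moved the number of genes called in shRNA+BBR against Vec+BBR from 1004 to 366 and in shRNA+BBR against shRNA from 1932 to 169, leaves 3 shRNA+BBR mice, and ended the Rxra call. Its 2 log2 fold changes of uncalled genes that changed sign were 0.036 (Rxra, Vec+BBR against Vec) and 0.050 (Rxrb, shRNA+BBR against shRNA), and the Pparg to Ppara log2 ratio in Vec+BBR against Vec became −0.13. A fit of only the 2 groups compared called 1178 genes in place of 1908 in Vec+BBR against Vec. DESeq2 called 330 genes in place of 18 for the interaction. The cause was not tested. The Rxrb value in shRNA+BBR against shRNA, near 0, was 0.0075 in the fit of only the 2 groups. The permutation calls were as before with RLE factors, and the ratio calls as before with FPKM.

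The replicate numbers of the labels were not treated as pairing mice. With group means removed, same-numbered libraries correlated above 0.1 in 3 of 5 numbers in shRNA+BBR against shRNA. In Vec+BBR against Vec it was 1 of 5, and in each knockdown comparison 0 of 5. These values do not settle whether the numbers pair mice. With the replicate number as a block, 1747, 1495, 940 and 1819 genes were called in the 4 pairwise comparisons and 21 for the interaction, the block changed no call of the 9 genes, and the Rxrb value in shRNA+BBR against shRNA became 0.0048.

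With each of the 20 libraries left out, the number of genes called in Vec+BBR against Vec lay between 1237 (without Vec replicate 2) and 2395, and it was 1248 without Vec replicate 1 and 1256 without Vec+BBR replicate 4. For shRNA against Vec it lay between 1015 (without shRNA replicate 4) and 2284. For shRNA+BBR against Vec+BBR it lay between 538 (without shRNA+BBR replicate 2) and 1217, and was also over 1.5 times lower without any of Vec+BBR replicates 2 to 5. For shRNA+BBR against shRNA it lay between 661 (without shRNA+BBR replicate 3) and 2527, and was also over 1.5 times lower without shRNA replicates 1, 2, 4 or 5 or shRNA+BBR replicates 2 or 4. For the interaction it lay between 5 (without Vec+BBR replicate 4) and 122 (without Vec replicate 4). The ratio calls of shRNA against Vec (from −2.72 to −2.11) and of shRNA+BBR against shRNA (from 1.81 to 2.50) held throughout, and the uncalled ratios ran from −0.25 to 0.36 in Vec+BBR against Vec and from −0.66 to 0.024 in shRNA+BBR against Vec+BBR. Uncalled log2 fold changes that crossed 0 had these ranges. In Vec+BBR against Vec they were Ncor1 −0.043 to 0.13, Ppara −0.053 to 0.55, Ppargc1a −0.25 to 0.041 and Rxra −0.13 to 0.060. In shRNA against Vec they were Med1 −0.18 to 0.025, Ppara −0.13 to 0.46, Ppard −0.14 to 0.036 and Ppargc1a −0.24 to 0.050. Between shRNA+BBR and Vec+BBR they were Ppard −0.12 to 0.094, Ppargc1a −0.095 to 0.23 and Ppargc1b −0.12 to 0.28. Between shRNA+BBR and shRNA they were Ppargc1a −0.10 to 0.21 and Rxrb −0.042 to 0.038, and for the interaction Med1 −0.22 to 0.0080 and Ppard −0.058 to 0.16.

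Depth limits Ppargc1b most, at 16 to 61 counts per library. Differences of the other genes that did not pass are bounded by their intervals, and are not shown to be absent.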
